A study of Mus musculus with 8 samples.

Results

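The cytosolic ribosomal protein genes were examined in cultured mouse cardiac fibroblasts, the cells that make the heart's connective tissue. Members were the protein-coding rows of the deposited tables whose symbol is that of a large subunit (Rpl) or small subunit (Rps) protein, together with Rpsa, Rplp0, Rplp1, Rplp2 and Fau. The S6 kinases, whose symbols begin alike, were left out. This gave 84 genes, 51 of the large and 33 of the small subunit, among 54532 rows of which 22046 were protein coding. The rule read symbols and gene types alone and used no measured value. Rps4l was left out because the table lists it as a transcribed processed pseudogene.

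The fibroblasts came from C57BL/6 mice and were used at passage 2. In the TSP-4 plasmid group, 4 libraries lettered A to D, cells were transfected with pAAV.CMV.SV40.THBS4-HA.SV40(polyA), which carries murine Thbs4, the gene of the matricellular protein thrombospondin-4 (TSP-4). In the empty plasmid group, also 4 libraries lettered A to D, cells were transfected with pAAV-CA. The labels name distinct constructs, and the comparison is therefore of 1 plasmid with another rather than of Thbs4 by itself. Both groups then had 12 h in antibiotic-free standard medium and 24 h without serum before poly(A) RNA was collected. No label states that the libraries stem from distinct animals or cultures, and p-values measure the spread among these libraries, which may be technical.

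Each ribosome carries 1 copy of almost every ribosomal protein, with the stalk proteins as an exception, and the genes are among the most strongly transcribed in growing cells. Their mRNAs begin with a terminal oligopyrimidine (TOP) tract, a C followed by further pyrimidines, through which the RNA-binding protein Larp1 and the kinase complex mTORC1 control their translation when serum or nutrients are withdrawn. That control acts mostly on ribosome loading, which an mRNA count does not measure. The family is also known for its many processed pseudogenes, copies of the spliced mRNA inserted elsewhere in the genome. In bulk RNA such as this, fewer cells of a type and less RNA per cell cannot be told apart.

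Starts of 6 members are shown because they carry the longest TOP tracts found at the family's annotated starts. Each sequence runs from 15 bases before the RefSeq start (GRCm38.p6) through 20 bases from it, 5′ to 3′ on the gene's strand, with the tract in capitals. They lie at chr19:6057932-6057966 (Fau, plus strand), chr14:18270967-18271001 (Rpl15, minus), chr2:39005112-39005146 (Rpl35, minus), chr17:27635225-27635259 (Rps10, minus), chr17:33955646-33955680 (Rps18, minus) and chr4:86857348-86857382 (Rps6, minus).
Fau: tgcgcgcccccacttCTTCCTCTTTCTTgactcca
Rpl15: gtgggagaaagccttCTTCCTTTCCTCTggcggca
Rpl35: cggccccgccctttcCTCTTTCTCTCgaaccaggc
Rps10: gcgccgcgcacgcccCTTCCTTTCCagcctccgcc
Rps18: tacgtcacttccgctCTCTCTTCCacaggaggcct
Rps6: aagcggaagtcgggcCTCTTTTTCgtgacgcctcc
A tract was counted where the first transcribed base was C and at least 4 pyrimidines (C or T) followed, read on the gene's own strand. It stood at 14 of 76 starts of the 64 members matched in the RefSeq table, or 18.4%, against 2.51% of all 32851 starts. Of 75 starts of mitochondrial ribosomal protein genes, 0 held it. When the C could lie within 5 bases of the annotated start, the shares were 42.1% of member starts and 18.3% of all starts. A tract is a match of letters and a missing one says only that these letters are not in this window.

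Sequences of members and copies are shown next because several members share nearly all of their coding sequence with a row that holds counts. The coding sequence of Rps27, a zinc-finger protein of the small subunit, spans chr3:90212725-90213615 (GRCm38, minus strand, introns spliced out). It is identical over its 255 bases to that of Rps27rt, a retrotransposed gene on chromosome 9, so that no letter is in capitals.
Rps27 and Rps27rt: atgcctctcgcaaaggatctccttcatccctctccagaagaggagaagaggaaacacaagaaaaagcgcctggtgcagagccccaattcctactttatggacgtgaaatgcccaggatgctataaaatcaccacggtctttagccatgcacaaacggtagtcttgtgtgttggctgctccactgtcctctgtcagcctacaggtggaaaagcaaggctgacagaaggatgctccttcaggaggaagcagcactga
Rpl30, a large subunit protein, differs from the processed pseudogene Gm12191 at 1 of 348 coding bases, G96A, with positions counted from the A of the start codon and the member's base given first. The 61 bases around it, with the differing base in capitals, lie at chr15:34442676-34442736 for Rpl30 and chr11:49678932-49678992 for Gm12191, both on the minus strand.
Rpl30: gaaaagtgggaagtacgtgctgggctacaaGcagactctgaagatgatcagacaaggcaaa
Gm12191: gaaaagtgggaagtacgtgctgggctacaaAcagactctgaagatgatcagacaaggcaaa
Rpl23, also of the large subunit, differs from Gm9794 at 1 of 423 coding bases, C253T. The 61 bases lie at chr11:97778322-97781337 for Rpl23 (spliced) and chr6:66875461-66875521 for Gm9794, both on the minus strand.
Rpl23: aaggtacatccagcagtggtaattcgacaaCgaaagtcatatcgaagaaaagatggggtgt
Gm9794: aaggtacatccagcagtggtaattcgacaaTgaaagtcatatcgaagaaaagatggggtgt

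Total counts per library were 17123735 to 22530947. The targeted gene checked the labels: Thbs4 had 38063, 25754, 36630 and 31675 counts in TSP-4 plasmid libraries A to D, against 2, 11, 8 and 3 counts in empty plasmid libraries A to D. Fibroblast markers summed to 19818 to 28311 CPM in TSP-4 plasmid libraries and 19378 to 27551 CPM in empty plasmid libraries (13 of 13 markers measured, led by Fn1). CPM here is the count scaled to library size with TMM factors. Macrophage markers, 13 of 13 measured and led by Lyz2, summed to 332 to 1892 CPM in TSP-4 plasmid libraries and 365 to 1533 CPM in empty plasmid libraries. Cardiomyocyte markers summed to at most 18.2 CPM and lymphocyte markers to at most 0.886 CPM in any library, with Cd3g at 0 throughout.

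Ribosomal protein genes took a steady share of the counts under both plasmids. Members held 2.91 ± 0.102% of counts in TSP-4 plasmid libraries and 2.97 ± 0.0812% in empty plasmid libraries (SD, n = 4 each). A share of counts gives short mRNAs less weight. Of summed FPKM, which divides counts by gene length, members held 6.50 ± 0.197% in TSP-4 plasmid libraries and 6.62 ± 0.143% in empty plasmid libraries. Summed over the family, the level was 29623, 29494, 28149 and 29892 CPM in TSP-4 plasmid libraries A to D, against 29799, 31298, 28957 and 28609 CPM in empty plasmid libraries A to D. The groups overlapped, with the highest value in empty plasmid library B and the lowest in TSP-4 plasmid library C. The means were 29289 ± 778 CPM in TSP-4 plasmid libraries and 29666 ± 1198 CPM in empty plasmid libraries (SD, n = 4 each), a ratio of 0.987. The large subunit summed to 16802 ± 536 CPM in TSP-4 plasmid libraries and 16977 ± 727 CPM in empty plasmid libraries, and the small subunit to 12487 ± 265 CPM in TSP-4 plasmid libraries and 12689 ± 474 CPM in empty plasmid libraries (SD, n = 4 each).

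Levels differed widely between members, far more than between libraries. On the per-length FPKM scale the median of the 83 members with any count was 157, with quartiles at 95.2 and 283. Rplp1, a stalk protein that helps to recruit elongation factors, was highest at 2332 ± 84.3 FPKM in TSP-4 plasmid libraries and 2332 ± 103 FPKM in empty plasmid libraries (SD, n = 4 each). Rplp0, the base of the same stalk, followed at 875 ± 45.8 FPKM in TSP-4 plasmid libraries and 873 ± 29.5 FPKM in empty plasmid libraries. The third stalk gene, Rplp2, stood at 199 ± 8.94 FPKM in TSP-4 plasmid libraries and 202 ± 6.60 FPKM in empty plasmid libraries. Rps15, Rpl36 and Rps3a1 came next after Rplp0, at means over the 8 libraries of 621, 613 and 586 FPKM, and these neighbours lay within each other's spread. Above 30 FPKM stood 74 members, and the lowest of those was Rpl7l1, a relative of Rpl7, at 32.4 FPKM. FPKM divides by gene length, and over the 83 members it had a Spearman correlation of -0.43 with that length. The order of members therefore also depends on annotated length.

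Some members are known for a further role besides the ribosome. Of 5 described here Rpsa, Rps6 and Fau stood above the upper quartile of members in FPKM, which also depends on annotated length. Rpsa, also known as the laminin receptor, stood at 362 ± 6.18 FPKM in TSP-4 plasmid libraries and 354 ± 12.3 FPKM in empty plasmid libraries. Rps6, the substrate after which the S6 kinases are named, stood at 332 ± 12.1 FPKM in TSP-4 plasmid libraries and 330 ± 19.6 FPKM in empty plasmid libraries. Fau, made as a fusion with a ubiquitin-like protein, stood at 439 ± 10.9 FPKM in TSP-4 plasmid libraries and 440 ± 28.4 FPKM in empty plasmid libraries. Rpl5 and Rpl11, which bind 5S ribosomal RNA and can restrain Mdm2 so that p53 accumulates, averaged 110 and 126 FPKM over the 8 libraries.

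The 10 members under 30 FPKM were 4 paralogues and 6 core ribosomal protein genes. Rpl10l, a testis paralogue of Rpl10, had 0 counts in every library. Rpl3l, a paralogue of Rpl3 used in heart and skeletal muscle, averaged 0.133 FPKM. Rpl39l, a paralogue of Rpl39 known from testis, averaged 2.84 FPKM, and Rpl22l1, a paralogue of Rpl22, 8.43 FPKM. The core genes were Rpl24, Rpl29, Rps10, Rpl30, Rpl13a and Rpl21, at 1.18 to 16.3 FPKM.

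**Figure D1:**
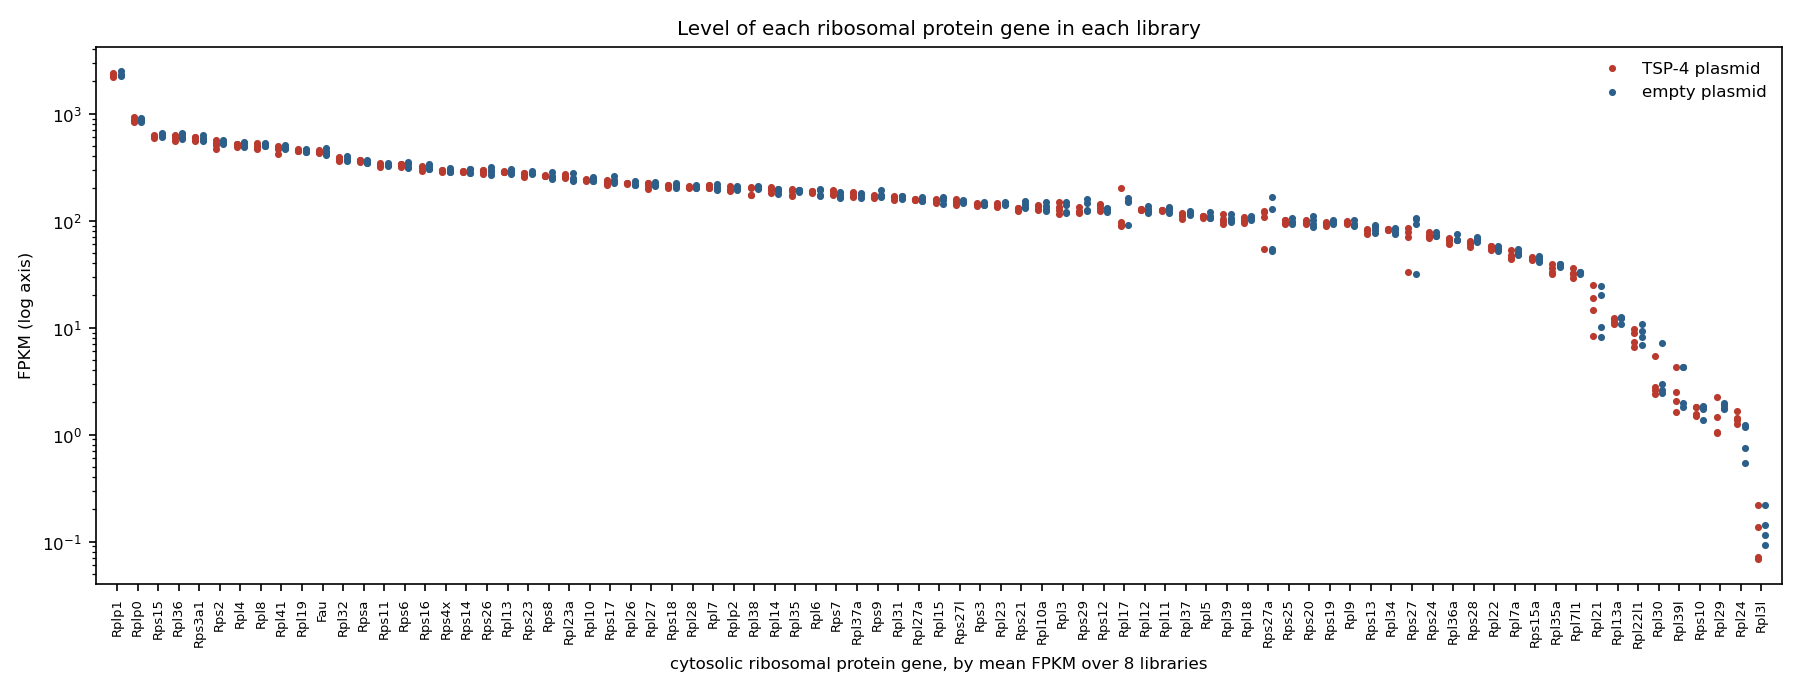
FPKM on a log axis for 81 of the 83 members with counts, ordered by mean, with 1 point per library (TSP-4 plasmid left, empty plasmid right). Levels run from 2332 FPKM (Rplp1) down to 0.133 FPKM (Rpl3l), and the points of most genes nearly coincide, while Rps27a, Rpl17, Rps27 and Rpl21 spread out.

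Copies elsewhere in the genome held more counts than several of the low members themselves. A copy was a pseudogene row, a row named as the member's pseudogene, or Rps27rt, that lies at another locus and shares at least 5% of the member's 50-base words. By this measure 75 members had 522 copies, and copies held 8.22% of the counts of members and copies together. For 61 members over 90% of those counts lay on the member itself. For 7 members the copies held more: Rpl17, Rpl21, Rpl30, Rps10, Rpl29, Rpl24 and, at 0 counts against 1, Rpl10l. Rows named as a member's pseudogene numbered 298, belonging to 61 members, and with them the family summed to 30722 ± 790 CPM in TSP-4 plasmid libraries and 31078 ± 1239 CPM in empty plasmid libraries (SD, n = 4 each).

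Rps10, a small subunit protein, held 2.50% of the counts of itself and its copies, and 1 copy carried nearly all of the rest. Rps10-ps2, a processed pseudogene on chromosome 16, had 3248, 2503, 2263 and 2709 counts in TSP-4 plasmid libraries A to D, against 3311, 2550, 2635 and 2719 counts in empty plasmid libraries A to D. Its coding sequence matches that of Rps10 but for 5 mismatches and 2 gap bases. Rpl30 had 161, 148, 278 and 142 counts in TSP-4 plasmid libraries A to D, against 191, 136, 433 and 141 counts in empty plasmid libraries A to D. Library C was the highest in both groups. Gm12191, the copy shown above, had 3426, 2507, 2267 and 2772 counts in TSP-4 plasmid libraries A to D, against 3255, 2851, 2836 and 3021 counts in empty plasmid libraries A to D. Rpl29 held 2.36% of the counts of itself and its 26 copies, and Rpl24 19.2% with 3 copies. How reads matching several places were assigned is not given in the sources used here, so single-gene counts of these members are uncertain. Overlap with other genes on either strand adds to this. In GENCODE M21 it covers 28.7% of exon bases for Rps10, 24.8% for Rpl30 and 35.4% for Rpl13a. It covers 4.06% for Rpl21 and 0% for Rpl29.

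Rps27 and Rps27rt, identical in coding sequence, had opposite patterns over the libraries. Rps27 had 1982, 613, 1386 and 1317 counts in TSP-4 plasmid libraries A to D, against 2341, 568, 2151 and 1861 counts in empty plasmid libraries A to D. Rps27rt had 896, 1641, 644 and 976 counts in TSP-4 plasmid libraries A to D, against 371, 1935, 345 and 558 counts in empty plasmid libraries A to D. Where Rps27 was low, in library B of both groups, Rps27rt was high. Rps27 made up 68.8, 27.2, 68.2 and 57.4% of the counts of itself and its copies in TSP-4 plasmid libraries A to D, against 86.3, 22.7, 86.2 and 76.9% in empty plasmid libraries A to D. The coefficient of variation (CV) over the 8 libraries was 38.3% for Rps27 alone and 6.10% for Rps27 with its copies.

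**Figure D2:**
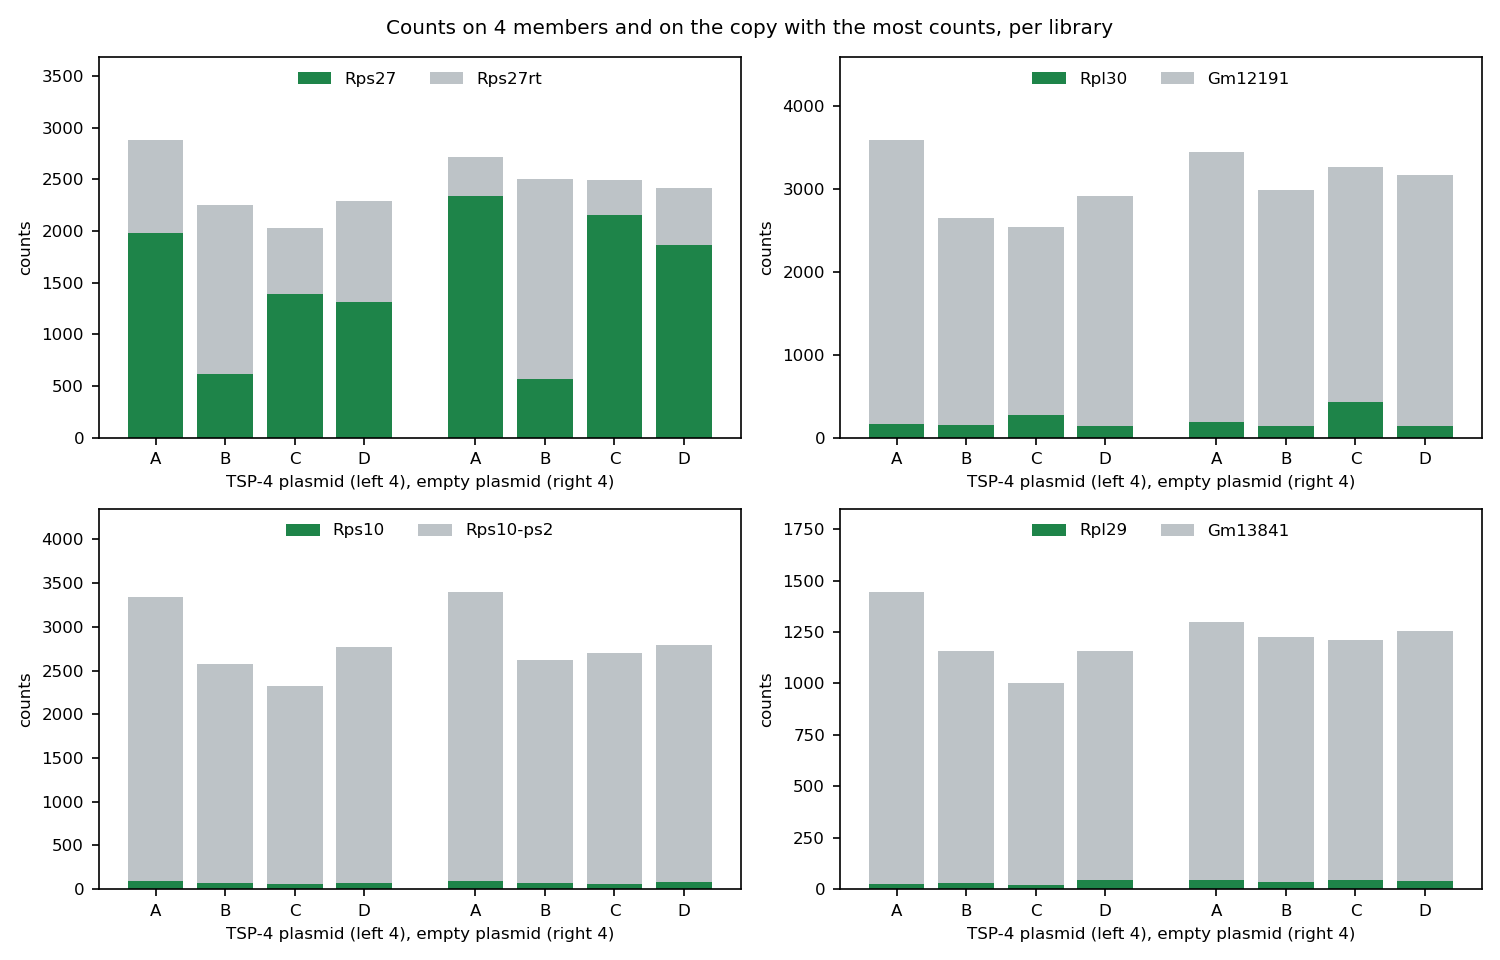
Stacked counts per library for 4 members (green) and the copy of each with the most counts (grey), with the 4 TSP-4 plasmid libraries left of the 4 empty plasmid libraries. Rps27 is smallest in library B of both groups and Rpl30 is largest in library C of both groups, while Rps10 and Rpl29 are thin slices throughout.

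Most members were very even across the 8 libraries. The median CV was 4.87% over the 83 members with counts, and 74 of them lay between 2.24% and 17.6%. The other 9 were above 25%, from 26.2% (Rpl29) to 50.3% (Rpl30). Summed with their copies, 6 of those 9 were under that limit: Rps27, Rpl30, Rpl17, Rpl21, Rpl29 and Rpl24. For Rpl30, Rpl17, Rpl21, Rpl29 and Rpl24 the copies held more counts than the member. A lower CV of such a sum can come from the copies alone and says little about the member's own spread. Rpl17 had a CV of 32.8% alone and 4.59% with copies. The limit of 25% was chosen after the values were seen.

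The remaining 3 of the 9 were Rps27a, Rpl39l and Rpl3l. Rps27a, a fusion of ubiquitin with a small subunit protein, had 240, 241, 214 and 108 CPM in TSP-4 plasmid libraries A to D, against 324, 108, 103 and 253 CPM in empty plasmid libraries A to D. Low values fell in library D of the TSP-4 plasmid group and in libraries B and C of the empty plasmid group, so the groups overlapped and the low libraries did not share a letter. Its CV was 41.6% alone and 36.9% with its 8 copies. Rpl39l and Rpl3l had no copy with counts, and Rpl3l rested on 34 counts in all.

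**Figure D3:**
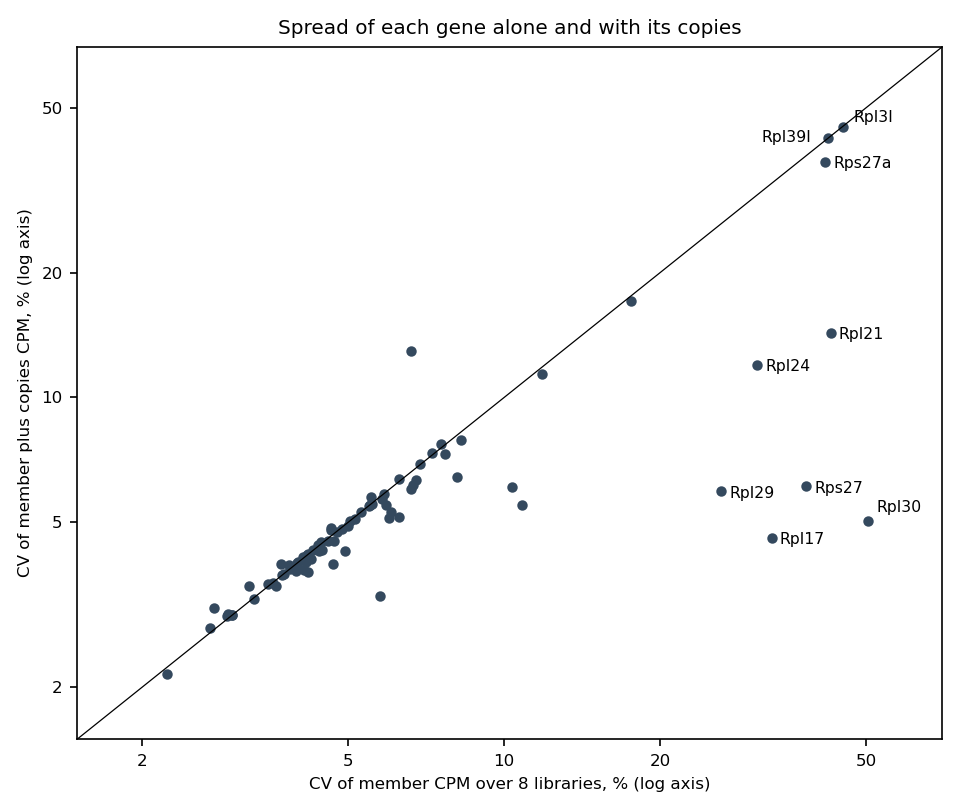
CV over the 8 libraries of the CPM of 81 members (horizontal, log axis) against the CV of the member summed with its copies (vertical, log axis), with the line of equality. Rps27, Rpl30, Rpl17, Rpl29, Rpl24 and Rpl21 lie far below the line, and Rps27a, Rpl39l and Rpl3l stay close to it.

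No ribosomal protein gene differed between the plasmids past the threshold. Of the 82 members with enough counts to be tested (49 large, 33 small), 0 were higher and 0 lower past a Benjamini-Hochberg adjusted p of 0.05 with edgeR (quasi-likelihood), where 0.00679% of all 14723 genes were called, Thbs4 alone. DESeq2 and limma voom called 0 members as well, as did edgeR with members summed with their copies, where 0.00687% of genes were called. At an unadjusted p of 0.05, 0 members were higher and 2 lower, against 0.652% of all genes higher and 0.944% lower. The median log2 fold change of the 82 members was -0.02 beside -0.00 over all genes, and 59 members lay below 0 where 50.1% of all genes did. That median depended on single libraries: it was 0.00 without library C of the TSP-4 plasmid group and 0.01 without library B of the empty plasmid group. The large subunit's median was -0.02 and that of the small subunit -0.02.

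The intervals of most members were narrow. For 69 of 82 members the 95% interval stayed inside 1.2-fold either way, or 84.1% against 37.5% of all genes. That contrast is not matched for level, and most members have high counts. The median within-group SD on the log2 scale was 0.0719 for members and 0.163 for all genes. Among genes of at least 100 CPM it was 0.0684 for 70 members and 0.0929 for all 2230 such genes. Within 1.5-fold lay 74 members. The other 8 were Rpl29, Rps27, Rpl39l, Rpl30, Rpl17, Rps27a, Rpl21 and Rpl24, each also among the 9 with a CV above 25%.

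The smallest p-values belonged to small differences in 2 small subunit genes. Rps28, which lies near the exit of the mRNA channel, had 93.9, 84.2, 89.8 and 89.6 CPM in TSP-4 plasmid libraries A to D, against 98.5, 99.5, 104 and 93.6 CPM in empty plasmid libraries A to D. The groups overlapped at library A of the TSP-4 plasmid group and library D of the empty plasmid group, and the TSP-4 plasmid was lower in 4 of 4 letters. Its log2 fold change was -0.15 (SE 0.0513), with an unadjusted p of 0.0189 and an adjusted p of 1.00 in edgeR. With letter as a replicate block the adjusted edgeR p of Rps28 was 0.425. Rps21, also of the small subunit, averaged 104 ± 3.90 CPM in TSP-4 plasmid libraries and 114 ± 7.27 CPM in empty plasmid libraries (SD, n = 4 each). The log2 fold change was -0.13 with an unadjusted edgeR p of 0.0465. Rpl35a, next among those with negative values, had a log2 fold change of -0.14 (SE 0.0702) at an unadjusted edgeR p of 0.0851.

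On the other side Rpl24 was the single member whose groups did not overlap. Upward, 1 of 82 members stood apart, against 0.652% of all genes, and downward 0 of 82, against 0.863%. Rpl24, which bridges the ribosomal subunits, had 38, 26, 24 and 23 counts in TSP-4 plasmid libraries A to D, against 12, 21, 25 and 15 counts in empty plasmid libraries A to D. Scaled for depth, the TSP-4 plasmid libraries lay between 1.29 and 1.71 CPM and those of the empty plasmid between 0.561 and 1.27 CPM. Its log2 fold change was 0.63 (SE 0.283) at an unadjusted edgeR p of 0.0535, and 0.23 (SE 0.121) when summed with its copies. In GENCODE M21 its exons overlap those of Gm28037 over 47.0% of their bases, so the count is uncertain for that reason too. Rps7 and Rps12, small subunit proteins, followed with log2 fold changes of 0.09 and 0.06 and unadjusted edgeR p of 0.200 and 0.327. With 1 library left out Rps7 ran from 0.06 to 0.13 and Rps12 from 0.03 to 0.10, and summed with their copies they were 0.07 and 0.03.

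Rps27 had a log2 fold change of -0.32 (SE 0.412) at an adjusted edgeR p of 1.00. It was -0.59 without library B, -0.19 without A and -0.20 without C of the empty plasmid group, and -0.10 without library B of the TSP-4 plasmid group. With letter as a replicate block the value was -0.28 at an adjusted edgeR p of 0.376, in a fit that called 0 members and 0.0136% of all genes. Without letter B that block fit gave -0.37 at an adjusted p of 0.0198, the single call of a member in any fit run, where 0.0269% of genes were called. Summed with its copies Rps27 averaged 127 ± 4.53 CPM in TSP-4 plasmid libraries and 132 ± 10.3 CPM in empty plasmid libraries (SD, n = 4 each), and the log2 fold change was -0.06 (SE 0.0613).

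**Figure D4:**
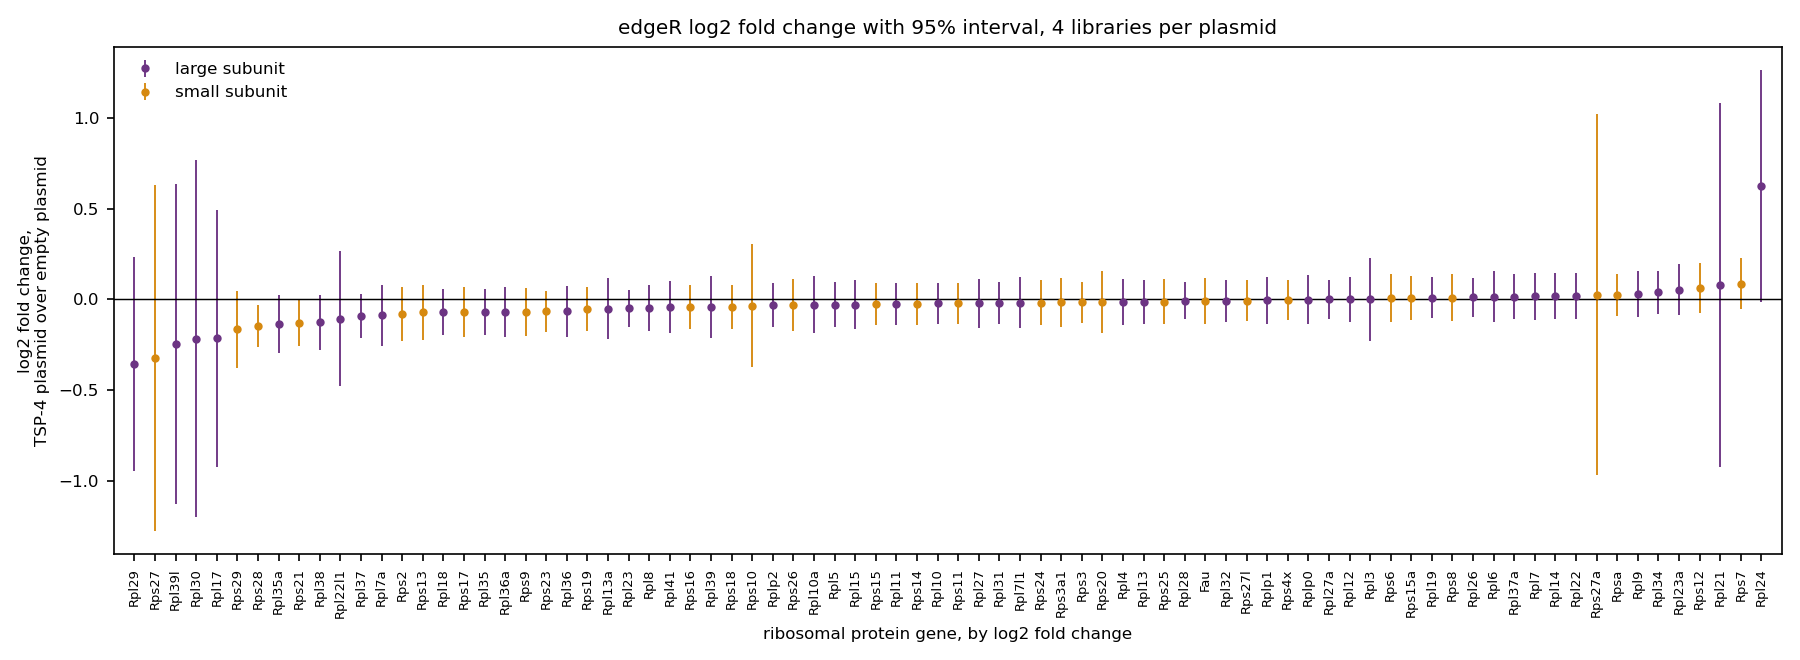
edgeR log2 fold change (TSP-4 plasmid over empty plasmid) of 80 of the 82 members tested, in rising order, with 95% intervals as bars and colour for the subunit. Most intervals are narrow and cross 0, and the 8 wide ones belong to Rpl29, Rps27, Rpl39l, Rpl30, Rpl17, Rps27a, Rpl21 and Rpl24.

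Ratios of paralogues to their partners differed between the plasmids by less than the SD within the TSP-4 plasmid group. Of 5 pairs, 4 could be tested, since Rpl3l was below the expression filter. Rpl22l1 over Rpl22 averaged -3.35 ± 0.193 on the log2 scale in TSP-4 plasmid libraries and -3.22 ± 0.236 in empty plasmid libraries (SD, n = 4 each). The two-sided exact permutation p was 0.429, where this design allows no p under 0.0286. A single ratio at that p would reach 0.114 when adjusted over the 4 pairs, so no single ratio could pass 0.05. Within letters Rpl22l1 over Rpl22 was lower in TSP-4 plasmid libraries in 4 of 4, with a two-sided exact sign-flip p of 0.125, the smallest that 4 letters allow. Rps27l over Rps27, a pair of which Rps27l is known as a p53 target, averaged 0.90 ± 0.617 in TSP-4 plasmid libraries and 0.64 ± 0.865 in empty plasmid libraries, at an exact p of 0.543. With Rps27 summed with its copies the means were -0.05 ± 0.0541 in TSP-4 plasmid libraries and -0.09 ± 0.0798 in empty plasmid libraries, higher with the TSP-4 plasmid in 4 of 4 letters (exact sign-flip p of 0.125). Rpl7l1 over Rpl7 and Rpl39l over Rpl39 differed by -0.04 and -0.19 between the plasmids, at exact p of 0.657 and 0.714. Adjusted over the 4 pairs, each p was 0.714.

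Library letters were where some ribosomal protein genes did differ. In a fit with plasmid and letter, 9 of 82 members, or 11.0%, differed between letters past the threshold (edgeR, adjusted p of 0.05), against 28.1% of all genes. The count was 12 without letter A (23.8% of all genes), 5 without B (23.2%), 5 without C (22.4%) and 6 without D (20.1%). It was 5 in DESeq2 (18.3%), 5 with letter alone in the fit (24.7%) and 14 with no filter on low counts (16.7%). What a letter marks is not stated. Over members the median range between letter means was 0.12 on the log2 scale, beside 0.30 over all genes. Among genes of at least 100 CPM it was 0.11 for 70 members and 0.19 for all 2230 such genes.

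The smallest letter p-values belonged to Rps27 and Rpl30. Rps27 averaged 99.7, 34.2, 95.7 and 85.5 CPM in letters A to D, lowest in B (adjusted edgeR p of 9.50e-06). Rpl30 averaged 8.12, 8.23, 19.2 and 7.67 CPM, highest in C (adjusted edgeR p of 1.62e-05). Summed with their copies the same test gave adjusted p of 0.244 for Rps27 and 0.872 for Rpl30. Most counts of the Rpl30 sum lay on copies, so that value says little about Rpl30 itself. In that fit 7 members were called, against 28.5% of all genes, among them Rpl3, Rps20, Rpl21, Rpl13a, Rpl22l1 and Rpl39l.

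The other 7 members had larger letter p-values. Rpl22l1 averaged 18.7, 19.8, 15.4 and 13.4 CPM in letters A to D. Rpl39l averaged 3.54, 1.68, 2.82 and 1.43 CPM. Rpl3, which helps to form the peptidyl transferase centre, averaged 474, 442, 373 and 392 CPM, and its copy Rpl3-ps1 on the X chromosome had its fewest counts in letter A of both groups. Rps7, Rps20 and Rpl10a, the last a protein of the L1 stalk, were each highest in letter B. Markers of several cell types differed between letters as well, in the fit where 28.1% of all genes were called. Macrophage markers, of which 12 of 13 were called between letters, summed to 332, 835, 1892 and 832 CPM in TSP-4 plasmid libraries A to D, against 365, 1121, 1533 and 689 CPM in empty plasmid libraries A to D. Fibroblast markers, 11 of 13 called, were lowest in letter D, at 19818 CPM in the TSP-4 plasmid library and 19378 CPM in the empty plasmid library. Endothelial markers, 5 of 8 called, summed to 126 to 156 CPM in TSP-4 plasmid libraries and 128 to 156 CPM in empty plasmid libraries. That sum was led by Flt1, at a mean of 95.9 CPM over the libraries. Pericyte and smooth muscle markers, 1 of 6 tested called, summed to 45.4 to 63.4 CPM in TSP-4 plasmid libraries and 49.7 to 76.7 CPM in empty plasmid libraries. The part of these cell types in the letter differences was not tested.

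**Figure D5:**
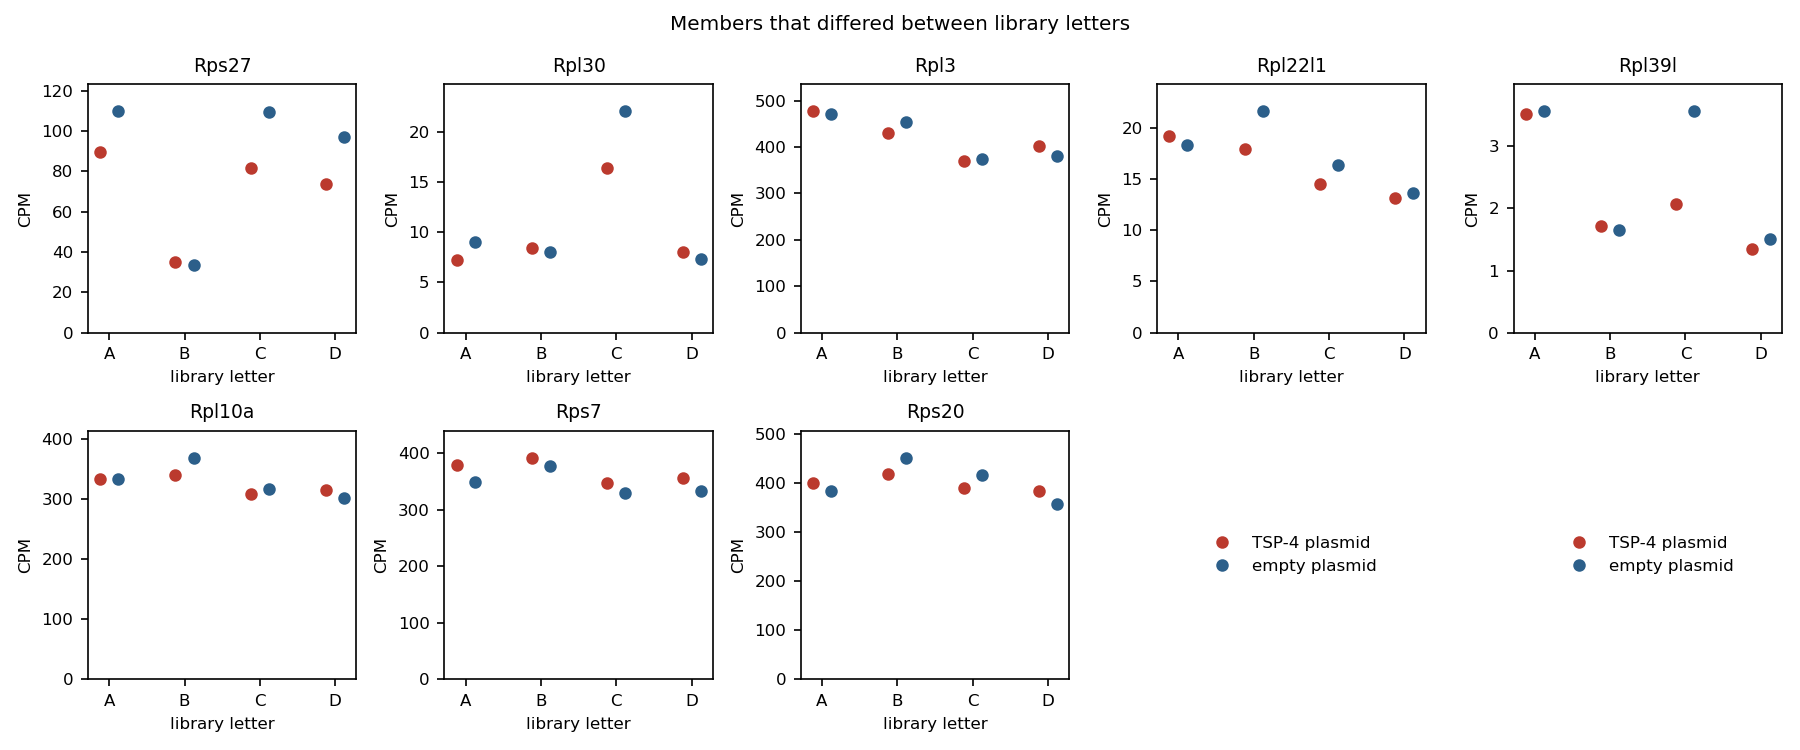
CPM of 8 of the 9 members that differed between letters, with 1 point per library (TSP-4 plasmid left, empty plasmid right) and axes starting at 0. Both plasmids are low for Rps27 in letter B and high for Rpl30 in letter C. The genes of highest level vary less in proportion than Rps27 and Rpl30.

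Gene groups around the ribosome had no member past the threshold either. Of 21 translation factors and other TOP mRNAs, 0 were called between the plasmids in edgeR, and their median log2 fold change was -0.03, or -0.03 to -0.01 with 1 library left out. Between letters 3 of the 21 were called, or 14.3%, against 28.1% of all genes. Between the plasmids the smallest p of the 21 was that of Hnrnpa1, an RNA-binding protein (unadjusted edgeR p of 0.0423). Hnrnpa1 averaged 136 ± 2.48 CPM in TSP-4 plasmid libraries and 150 ± 11.4 CPM in empty plasmid libraries (SD, n = 4 each). Eef1a1, the elongation factor that delivers tRNA, and Vim, the intermediate filament vimentin, were the most abundant, at 5612 ± 268 and 3950 ± 233 CPM in TSP-4 plasmid libraries, against 5409 ± 377 and 3903 ± 271 CPM in empty plasmid libraries.

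Among 38 ribosome biogenesis genes, 33 had a log2 fold change below 0, where 50.1% of all genes did, and 0 were called in edgeR. Their median log2 fold change was -0.09, beside -0.00 over all genes. That median moved with single TSP-4 plasmid libraries: it was -0.06 without library A, -0.06 without library B and -0.17 without library D. It was -0.04 with the replicate block without letter A. At an unadjusted p of 0.05, 4 of them were lower and 0 higher, against 0.944% of all genes lower. Gnl3, the nucleolar protein nucleostemin, averaged 55.6 ± 5.68 CPM in TSP-4 plasmid libraries and 64.9 ± 4.02 CPM in empty plasmid libraries. Nop58, a core protein of box C/D snoRNPs, averaged 70.9 ± 6.17 CPM in TSP-4 plasmid libraries and 80.7 ± 5.04 CPM in empty plasmid libraries (SD, n = 4 each). Ncl (nucleolin) and the helicase Ddx21 were the most abundant, at 537 ± 46.4 and 157 ± 14.2 CPM in TSP-4 plasmid libraries, against 581 ± 46.7 and 163 ± 10.9 CPM in empty plasmid libraries. Gnl3 and Nop58 were named for the smallest p of the 38 between the plasmids (unadjusted edgeR p of 0.0202 and 0.0302). For Ncl and Ddx21 the unadjusted edgeR p was 0.201 and 0.476. Each of these 4 genes was lower with the TSP-4 plasmid in 4 of 4 letters. For Gnl3 and Nop58 that follows in part from the choice by p, and the share of all genes with this pattern is not given here. Between letters 17 of the 38 were called, or 44.7%, against 28.1% of all genes.

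Of 22 genes of mTORC1, Larp1 and the S6 kinases, 0 were called between the plasmids in edgeR and the median was 0.01. Between letters 6 of the 22 were called, or 27.3%, close to the 28.1% of all genes. Between the plasmids Mlst8, an mTOR subunit, and Pdcd4, a translation inhibitor that S6 kinase marks for destruction, had the smallest p. The unadjusted edgeR p was 0.129 for Mlst8 and 0.160 for Pdcd4. Their levels were 9.11 ± 1.42 and 32.6 ± 2.36 CPM in TSP-4 plasmid libraries, against 10.6 ± 1.00 and 30.1 ± 2.29 CPM in empty plasmid libraries. Larp1 averaged 281 ± 6.35 CPM in TSP-4 plasmid libraries and 293 ± 10.2 CPM in empty plasmid libraries, and Rheb, which activates mTORC1, averaged 140 ± 12.3 CPM in TSP-4 plasmid libraries and 141 ± 11.3 CPM in empty plasmid libraries. Of 77 mitochondrial ribosomal protein genes, 0 were called in edgeR, and the median was -0.03, running from -0.06 without library D of the TSP-4 plasmid group to -0.00 without library C of that group. Between letters 3 of the 77 were called, or 3.90%, against 28.1% of all genes. Between the plasmids Mrpl20 and Mrpl47 had the smallest p of the 77 (unadjusted edgeR p of 0.0769 and 0.0910). Their log2 fold changes were -0.11 and -0.17. The highest levels were those of Mrpl13 and Mrpl30, at 63.4 ± 1.92 and 57.4 ± 3.53 CPM in TSP-4 plasmid libraries. In empty plasmid libraries Mrpl13 and Mrpl30 stood at 65.7 ± 6.65 and 58.2 ± 3.0 CPM.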

How the data were processed

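Per the labels' protocols, poly(A) RNA was made into libraries with NEBNext Ultra reagents. Tools named in the submitters' processing notes are CASAVA, TopHat2 (2.0), Cufflinks (2.1.1) and HTSeq (0.6.1), and builds mm10 and GRCm38.p6, with no roles. Whether counting used strand, which annotation release served and how multi-mapped reads were treated is not given in the sources used here. The table deposited by the authors holds whole-number counts per gene, used unchanged. The authors' deposited FPKM values are the count over length and library total, times 1 constant per library.

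The 84 members, the gene lists and the named-gene rule were chosen with earlier results of these data known. The rule named the 5 highest and 5 lowest members by FPKM, 3 per direction with the smallest p between plasmids, 5 between letters, any member called in any fit, the stalk genes, Rpl5, Rpl11, Rps6, Fau, Rps27a, Rpsa and the paralogues, and 4 per companion list. A few single-gene results are not reported here.

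The main test was edgeR 4.0.16 (R 4.3.3) with TMM factors, a minimum count of 10 and plasmid as the single term, with Benjamini-Hochberg adjustment over 14723 genes. Alternatives were a replicate block, DESeq2 1.42.0, limma 3.58.1, other scalings, no filter, log2(FPKM + 1 or + 0.1), left-out libraries and, chosen after seeing the data, members summed with their copies. Copies were found by 50-base words of GENCODE M21 transcripts (GRCm38). Same-letter libraries deviated from their group means with correlations across genes of 0.508 to 0.651, and others at -0.570 to 0.323, so letters were taken to pair libraries, on the evidence of the data rather than of any label. The main fit ignores that pairing, so its p-values and intervals include the spread between letters. The replicate block takes that spread out. Counting error is small at these depths for most members; spread between libraries sets the intervals.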

Additional observations from a re-analysis of the deposited data

Results flagged for a closer look

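In 164 sets of 4 libraries (the CPM of the members examined, the summed level and the share on copies, in each group), 7 had a library far from the other 3, where chance alone gives about 1 in 20. Each first number in parentheses is the gap between that library and the next, divided by the range of the 4. With the TSP-4 plasmid, library C was lowest for Rpl4 (0.870; 989 CPM, the next 1043). In that group library C was highest for Rpl30 (0.871; 16.4 CPM, the next 8.44) and library D for Rpl17 (0.930; 156 CPM, the next 75.9). With the empty plasmid, library B was highest for Rplp1 (0.832; 1253 CPM, the next 1152) and Rpl36a (0.968; 125 CPM, the next 110). Library B of that group was lowest for Rps27 (0.831; 33.5 CPM, the next 97.0), and library C was highest for Rpl30 (0.890; 22.1 CPM, the next 8.97).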

How the results depend on the processing

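Counts of members called between plasmids stayed at 0 in each direction under 21 of 22 other settings, and were 1 lower (Rps27, -0.37) with the replicate block without letter B. The replicate block alone gave 0 calls among members and the companion lists, and a median of -0.02 for members. It called 0.0136% of all genes, where the main fit called 0.00679%. The members' median ran from -0.04 to 0.01 with 1 library left out. For mTORC1, Larp1 and S6 kinase genes it was 0.01, -0.016 to 0.025 with 1 library left out, -0.0082 by library totals, and -0.0066 and 0.020 with the block without letters A and D. Rpl30 ran from -0.55 to 0.30 with 1 library left out and changed sign without library C of the empty plasmid group, and 17 of 30 named members changed sign when some library was left out. Summed levels were 30722 and 31941 CPM in TSP-4 plasmid libraries and 31078 and 32302 CPM in empty plasmid libraries when named pseudogenes or all copies were added. Members called between letters, 9 in all, were 5 without letter B, 5 without letter C, 5 in DESeq2, 14 with no filter and 5 with letter alone in the fit. The causes of these moves were not tested. Rpl3l and Rpl10l were too low to test, and genes such as Rpl24 rest on few counts.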
